A study of Mus musculus with 3 samples.

Results

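Nuclear-encoded subunits of oxidative phosphorylation were followed in 4T1 cells, a mouse mammary carcinoma line, on 3 Affymetrix Mouse Genome 430 2.0 arrays. The members were chosen by name as subunits of the 5 respiratory complexes, and every probe set whose platform annotation gave a listed gene as its only symbol was taken. Of 45 listed names, 44 had such a probe set, and these 44 genes were measured by 95 probe sets of the 45037 on the array, among 18194 named genes in all. Cox7b had none and is named only.

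Each culture condition was measured on 1 array. The regular-medium cells were kept in RPMI-1640 with 10% fetal bovine serum, which the labels give as the growth medium of all 3 conditions. The conditioned-medium cells were grown for 1 week in medium taken from MSCs (MSC-CM), an abbreviation commonly used for mesenchymal stem or stromal cells. The co-culture cells grew for 1 week touching MSCs, after which they were separated from those cells. The sources used here do not say how long the regular-medium cells were kept, where the MSCs came from or how the cells were separated. Separation applied to the co-culture cells only, so it cannot be told apart from contact. No condition had a replicate, so no test was run and no value has a replicate error.

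The respiratory chain of the inner mitochondrial membrane passes electrons from NADH (complex I) and succinate (complex II) to ubiquinone, on to cytochrome c (complex III) and finally to oxygen (complex IV). Complexes I, III and IV pump protons, and the ATP synthase (complex V) uses the gradient to make ATP. Most subunits are encoded in the nucleus and imported, and a small core is encoded by mitochondrial DNA, so the complexes are assembled from the products of both genomes. Cancer cells often rely heavily on glycolysis while keeping a working respiratory chain.

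Values are MAS5 signals on a linear scale, and a difference is the log2 ratio of 2 arrays after signals below 42.4 were raised to that floor. The brightest probe set stands for a gene unless others are named. A gene counted as measured in a comparison when the brighter array reached 149.3, and as higher or lower when the arrays also differed at least 2-fold. All 44 members were measured in every comparison, and 43 were bright on all 3 arrays, the exception being Cox7c in co-culture.

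The median signal over all probe sets was between 71.6 and 79.8 on the 3 arrays, and their 2% trimmed means were 497.7 to 498.0. All 10 epithelial markers, among them Epcam, Cdh1, Krt8 and Krt18, were bright on every array, which is what the labelled cell type would have. Their differences between co-culture and regular medium were all positive, with a median of 0.46 and sums of 75608, 78014 and 98909.8 on the 3 arrays, and the median between conditioned and regular medium was 0.02. Of 14 MSC and fibroblast markers with a probe set, 3, 5 and 7 were bright in regular medium, MSC-CM and co-culture, and their summed signals were 4258, 4721 and 7537. The 7 measured between co-culture and regular medium all had positive differences, with a median of 0.89, and 3 were at least 2-fold higher, against 5.81% of measured genes. Only 3 markers were bright in regular medium, so the rest of the 7 were measured through the co-culture array alone. That filter favours positive differences. The 5 measured between conditioned and regular medium were all positive too, with a median of 0.31. Of these, 1 was at least 2-fold higher, against 0.109% of measured genes, and the same filter applies. Col1a1, Dcn, Mgp, Pdgfrb and Thy1 were at or below the floor on all arrays. Of 6 leukocyte markers 3, 3 and 2 were bright, with sums of 759.4, 738.6 and 826.9, and Ptprc and Itgam were at or below the floor throughout. None of 3 endothelial markers was bright. The part of these markers in the values of the respiratory genes was not tested. In such bulk RNA, fewer cells of a type and less RNA per cell cannot be told apart.

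Members differed little between conditioned and regular medium. All 44 (100%) lay within 1.25-fold, against 90.5% of the 9152 measured genes. None was 2-fold higher or lower, against 0.109% and 0.306% of measured genes, and none was 1.5-fold higher or lower, against 0.754% and 1.46%. The median log2 difference over members was 0.00, from a low of -0.31 for Ndufv1 to a high of 0.12 for Ndufa9, with an SD over genes of 0.10. Genes with high signals vary less, and of 3196 genes at or above the pooled 90th percentile of signal on an array 98.5% lay within 1.25-fold, so the members were close to other bright genes here.

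In co-culture the members spread further, and 3 of them were lower by at least 2-fold. These were Uqcrfs1, the Rieske iron-sulfur protein of complex III, Sdhd, a membrane anchor of complex II, and Cox7c, a small subunit of complex IV. Cox7c was read from dim probe sets only, as given below. No member was 2-fold or 1.5-fold higher than in regular medium, against 5.81% and 16.9% of the 9393 measured genes. The 3 lower members are 6.82% of 44, against 2.76% of measured genes that were 2-fold lower. The same 3 were the ones lower at 1.5-fold, against 9.86% of measured genes. Within 1.25-fold of regular medium lay 29 members, 65.9%, against 47.8% of measured genes and 51.7% of the genes with high signals. The median over members was -0.09 with an SD of 0.39, and 28 of 44 members were negative. Over all measured genes the median was 0.07, and 4129 of 9393 were negative. The genes with high signals lay closer to the members, with a median of 0.0056 and 1575 of 3199 negative. After quantile normalization, which evens out the signal distributions of the arrays, the member median was -0.02 and 24 members were negative. The median over all measured genes was then 0.06.

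Set against conditioned medium, co-culture gave the same 3 members as 2-fold lower and none higher, against 2.6% and 5.83% of the 9350 measured genes. At 1.5-fold Ndufs4 joined them, so that 4 members were lower and none higher, against 9.95% and 16.9%. In this comparison 31 members lay within 1.25-fold, 70.5%, against 47.6% of measured genes. It shares the co-culture array with the comparison above and is not independent of it.

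**Figure D1:**
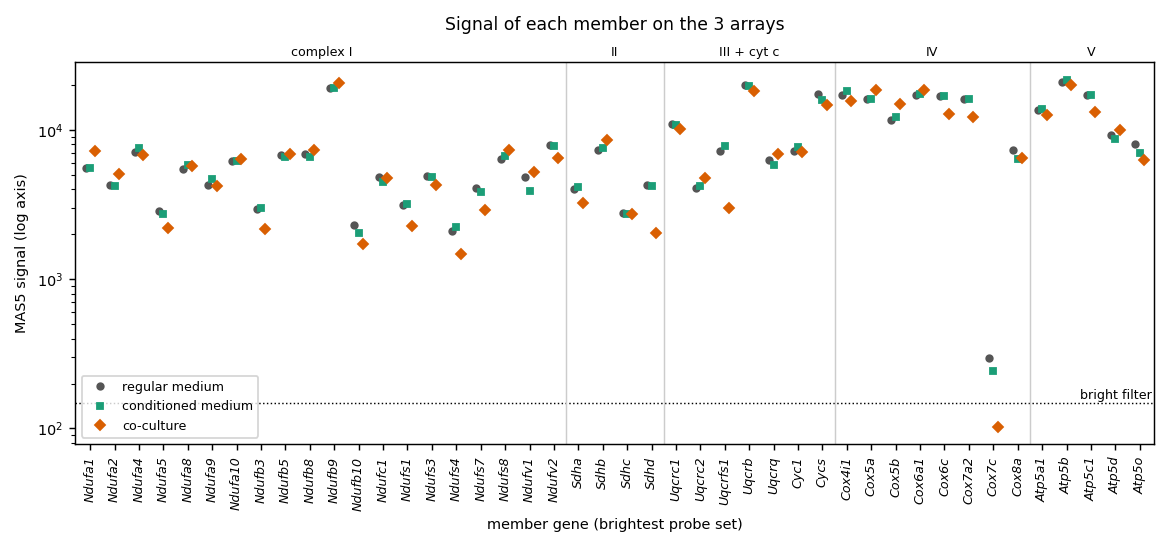
MAS5 signal (log axis) of the brightest probe set of each of the 44 members on the regular-medium, conditioned-medium and co-culture arrays, ordered by complex, with 1 array per condition and no error bars. Regular and conditioned medium nearly coincide for most genes, and the co-culture points of Sdhd, Uqcrfs1 and Cox7c lie clearly below the other arrays.

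Promoter windows were looked up for sequence features the members share. The RefSeq table for GRCm38.p6, which gives 250 bases before and 50 after an annotated start site, held windows for 33 of the 44 members. They were searched on both strands for letters bound by 3 regulators of respiratory genes, namely NRF1 (GCGCATGCG), ETS factors such as GABP (CCGGAAG) and YY1 (AAGATGGC). A match is a string of letters and not a shown binding site. NRF1 letters were in the windows of 4 members (12.1%), namely Ndufa8, Uqcrc1, Cycs and Cox6a1, against 1.95% of the 27025 genes in the table and 4.64% of the 7758 genes bright on an array. YY1 letters were in 5 (15.2%), namely Ndufa9, Ndufb8, Ndufc1, Ndufs4 and Ndufs7, against 3.19% and 5.96%. ETS letters were in 6 (18.2%), namely Ndufs3, Ndufs8, Sdhb, Sdhd, Cox6a1 and Cox8a, against 9.93% and 22.8%, so bright genes held them at least as often as members did. The windows of 19 members, those of Uqcrfs1 and Cox7c among them, held none of these letters. The 5 YY1 matches all read in the direction of the gene and began 22 to 38 bases after the start site.

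The 4 windows printed here were chosen because they show each kind of match: Sdhd is the member among the lowest in co-culture that has one, Cycs and Cox6a1 hold NRF1 letters, and Ndufs4 holds YY1 letters. All 4 lie on the minus strand, at chr9:50603800-50604099, chr6:50566520-50566819, chr5:115348909-115349208 and chr13:114388045-114388344 (GRCm38.p6), and are written 5′ to 3′ in the direction of the gene with matches in capitals. In Cox6a1 the NRF1 letters match on both strands of the same palindrome.
Sdhd: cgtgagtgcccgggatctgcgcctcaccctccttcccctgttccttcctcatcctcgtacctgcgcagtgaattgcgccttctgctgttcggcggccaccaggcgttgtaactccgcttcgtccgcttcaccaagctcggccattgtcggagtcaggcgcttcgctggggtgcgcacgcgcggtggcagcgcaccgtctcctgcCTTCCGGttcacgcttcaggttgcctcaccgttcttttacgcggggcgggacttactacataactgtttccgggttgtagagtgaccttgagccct
Cycs: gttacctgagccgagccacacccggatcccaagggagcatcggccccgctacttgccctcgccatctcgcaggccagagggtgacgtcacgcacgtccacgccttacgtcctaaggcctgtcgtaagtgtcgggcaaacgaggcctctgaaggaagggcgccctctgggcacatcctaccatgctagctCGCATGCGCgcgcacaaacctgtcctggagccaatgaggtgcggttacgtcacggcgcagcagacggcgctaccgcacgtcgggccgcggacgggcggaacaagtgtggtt
Cox6a1: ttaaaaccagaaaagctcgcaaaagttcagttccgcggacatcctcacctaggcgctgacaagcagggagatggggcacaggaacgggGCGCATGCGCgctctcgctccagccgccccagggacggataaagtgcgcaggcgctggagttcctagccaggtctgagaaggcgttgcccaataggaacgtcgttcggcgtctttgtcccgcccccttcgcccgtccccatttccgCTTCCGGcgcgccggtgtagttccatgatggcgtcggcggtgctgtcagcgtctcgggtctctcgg
Ndufs4: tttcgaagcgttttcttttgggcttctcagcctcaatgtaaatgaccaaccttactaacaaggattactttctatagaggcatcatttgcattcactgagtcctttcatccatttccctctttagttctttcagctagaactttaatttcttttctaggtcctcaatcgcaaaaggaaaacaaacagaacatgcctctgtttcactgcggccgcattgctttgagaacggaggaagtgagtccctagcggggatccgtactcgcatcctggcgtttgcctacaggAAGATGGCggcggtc
Members with NRF1 letters had co-culture minus regular-medium differences from -0.23 to 0.13. Those with ETS letters ran from -1.07 (Sdhd) to 0.23 (Sdhb), and those with YY1 letters from -0.50 (Ndufs4) to 0.09 (Ndufb8). The groups of genes with the same letters therefore overlapped in their differences.

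**Figure D2:**
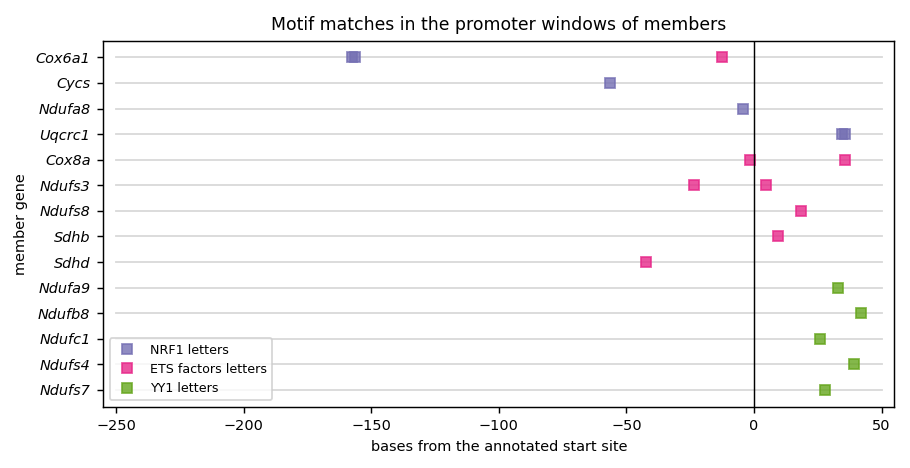
Position of NRF1, ETS and YY1 letters in the promoter windows of the 14 members with a match, in bases from the annotated start site, with each window running from 250 bases before to 50 after it. The YY1 matches cluster 22 to 38 bases after the start site, while NRF1 and ETS matches lie on both sides of it.

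Complex I, the NADH dehydrogenase, had 20 members, none of them 2-fold apart in any comparison. Their median difference between co-culture and regular medium was -0.02, and 9 were positive and 11 negative. By the place of the subunit, the median was -0.29 over the 5 members of the NADH-oxidising module, -0.20 over the 5 of the quinone module and 0.05 over the 9 of the membrane arm. The modules overlapped, since their ranges were -0.50 to 0.24, -0.49 to 0.19 and -0.44 to 0.37.

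In the NADH-oxidising module, Ndufv1, which binds the flavin that takes electrons from NADH, had signals of 4823, 3895 and 5248, in the order regular medium, MSC-CM and co-culture used from here on. The conditioned-medium array was the low one, but the other 2 Ndufv1 probe sets had conditioned minus regular differences of 0.08 and 0.03. Between co-culture and regular medium all 3 were positive, from 0.12 to 0.51. Ndufv2, its iron-sulfur partner, had 7945, 7848 and 6504. Ndufs1, the largest subunit and a carrier of iron-sulfur clusters, had 3153, 3170 and 2284, which put co-culture 1.38-fold below regular medium while the media differed by 0.01 in log2. Ndufs4, an accessory subunit whose mutation causes complex I deficiency, had 2090.5, 2224 and 1479.9, so co-culture was 1.41-fold below regular medium and just past 1.5-fold below conditioned medium. Ndufs4 was uneven across its bright probe sets, with co-culture minus regular differences of -0.50, 0.08 and -0.98. Ndufa2, an accessory subunit, went the other way with 4311, 4206 and 5078.

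In the quinone module, which hands electrons to ubiquinone, Ndufs7 carries the last iron-sulfur cluster and had 4071, 3868 and 2889, with co-culture 1.41-fold below regular medium. Its second probe set gave -0.32 in log2. Ndufs8, another iron-sulfur subunit, had 6439, 6679 and 7370, so it was not low in co-culture, and 5 of its 6 probe sets were positive. Ndufs3 had 4886, 4806 and 4262, and the accessory subunits Ndufa5 and Ndufa9 had differences of -0.38 and -0.03. Ndufa5 was also lower at its second probe set, by -0.72, from a signal of 1663 in regular medium to 1006 in co-culture.

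In the membrane arm, Ndufa1, an accessory subunit needed for assembly, had the highest difference of all members at 0.37, with 5600.5, 5541 and 7232. Ndufb3 and Ndufb10, accessory subunits of the distal membrane arm, were its lowest members at -0.44 and -0.43, with co-culture signals of 2169 and 1727 against 2947 and 2325 in regular medium. For Ndufb10 conditioned medium lay between, at 2036. Ndufb9 had 19139, 19244 and 20603, a difference of 0.11. Ndufa8, Ndufa10, Ndufb5, Ndufb8 and Ndufc1 were closer still, from 0.00 to 0.09. Ndufa4, listed here by its name but since assigned to complex IV, had 7174, 7534 and 6837.

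**Figure D3:**
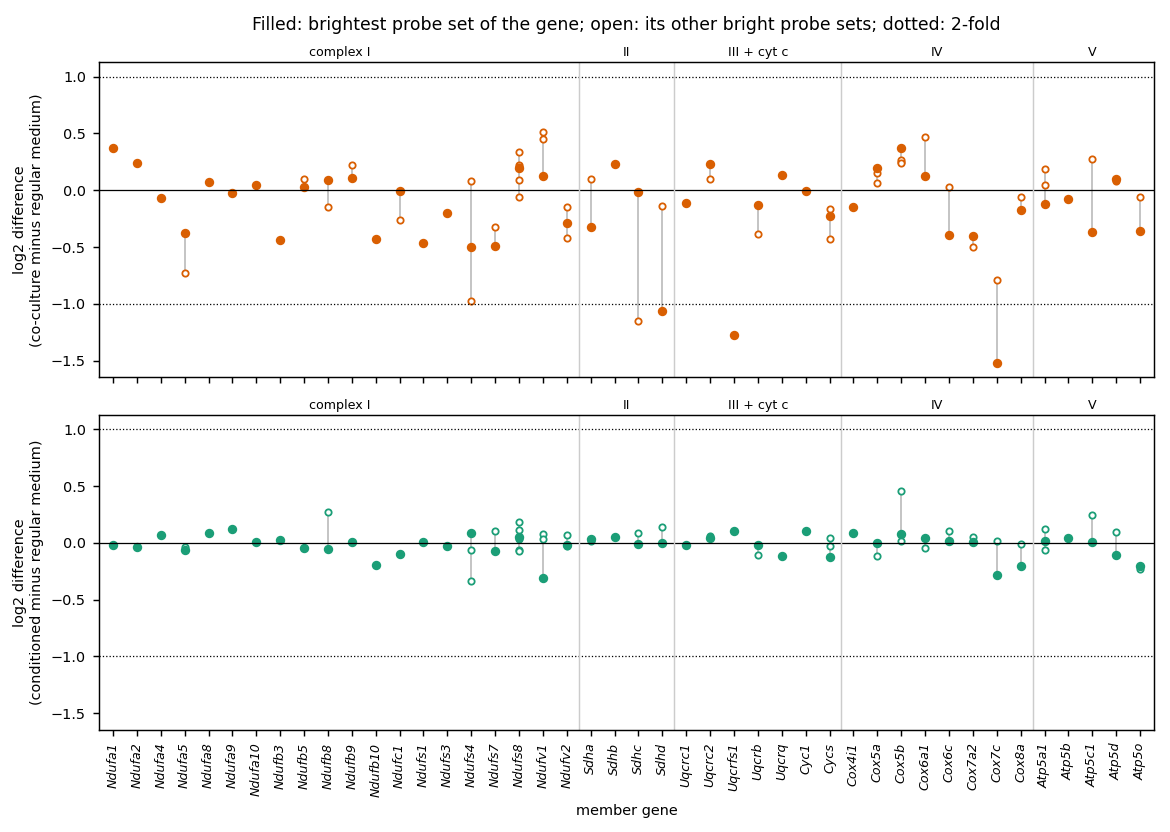
Log2 difference of every bright probe set of each member, for co-culture minus regular medium (upper panel) and conditioned minus regular medium (lower panel). Filled points are the brightest probe set, open points the others, grey lines join probe sets of the same gene and dotted lines mark 2-fold. Brightest probe sets run from -1.52 to 0.37 in the upper panel and from -0.31 to 0.12 in the lower.

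Complex II, succinate dehydrogenase, is the only respiratory complex that also works in the citric acid cycle and has no subunit from mitochondrial DNA. Of its catalytic subunits, Sdha, the flavoprotein, had 4023, 4127 and 3222, a difference of -0.32, while its second bright probe set had 1721, 1738 and 1843, a difference of 0.10. Sdhb, the iron-sulfur protein, had 7293, 7561 and 8545, the highest signal being in co-culture. Sdhd, which with Sdhc anchors the enzyme in the membrane and binds its heme, had 4249, 4244 and 2028. The media were alike for Sdhd and co-culture was 2.10-fold lower than regular and 2.09-fold lower than conditioned medium.

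The probe sets of the anchor genes disagreed. A dimmer Sdhd probe set, marked in its name as open to cross-hybridisation, had 543.4, 600.6 and 493.7, a difference of -0.14, and averaging both gave -0.60, which is no longer 2-fold. For Sdhc the brightest probe set had 2762, 2748 and 2738, a difference of -0.01, while its other probe set, also so marked, had 1401, 1485 and 631.0, a difference of -1.15. Each anchor gene thus had 1 probe set more than 2-fold lower in co-culture and 1 that was nearly level. The median over the 4 members was -0.17 between co-culture and regular medium and 0.02 between the media.

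Complex III, the cytochrome c reductase, together with cytochrome c had 7 members, and 6 of them lay within 1.25-fold of regular medium in co-culture. The exception was Uqcrfs1, whose protein carries the Rieske iron-sulfur cluster that takes electrons from ubiquinol. Its signals were 7287, 7838 and 3016, with the co-culture array alone being low. Co-culture was 2.42-fold below regular and 2.60-fold below conditioned medium, and Uqcrfs1 had no second probe set to set beside this. The other catalytic subunit here, Cyc1 (cytochrome c1), had 7193, 7731 and 7145, with co-culture and regular medium apart by -0.01.

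The core proteins Uqcrc1 and Uqcrc2 had 10923, 10753 and 10099, and 4074, 4194 and 4779.8. Uqcrb, a small subunit, had 20092, 19855 and 18311, a difference of -0.13, and its dimmer probe set gave -0.39. Uqcrq, another, had 0.13. Cycs, the mobile electron carrier cytochrome c, had 17334, 15949 and 14798, and its 3 bright probe sets gave -0.43 to -0.17 between co-culture and regular medium. Between the media they differed in sign, from -0.12 to 0.05. The median of this group was -0.11 as scaled by the authors and 0.02 after quantile normalization, so its sign depends on the scaling.

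Complex IV, cytochrome c oxidase, had 8 members with a probe set, whose median between co-culture and regular medium was -0.16. Cox7c had signals of 295.6, 242.6 and 103.0 and was 2.87-fold lower in co-culture than in regular medium and 2.36-fold lower than in conditioned medium. The second Cox7c probe set, which reached the brightness limit of 149.3 in conditioned medium only, had 148.9, 150.6 and 86.2, a difference of -0.79. The 2-fold call for Cox7c was lost when the floor was raised to the 60th percentile of signal, where its difference was -0.99. Both Cox7c probe sets were dim, since the brightest probe sets of the other complex IV members had signals of 6386 or more. The brighter Cox7c probe set is marked in its name as open to cross-hybridisation. Whether either reports the main Cox7c mRNA was not tested.

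The other members of complex IV split by sign. Cox6c and Cox7a2, small subunits encoded in the nucleus, had 16817, 16991 and 12811, and 16133, 16180 and 12184, so co-culture was 1.31-fold and 1.32-fold lower while the media were level. The second Cox6c probe set gave 0.03 and the second Cox7a2 probe set -0.50. Cox5b, which binds zinc, had 11645, 12299 and 15034, and all 4 of its bright probe sets were higher in co-culture, by 0.24 to 0.37. Cox6a1 had 17032, 17518 and 18575, a difference of 0.13, and its second probe set gave 0.47. Cox5a had 0.19. Cox4i1, which binds ATP as a regulator, and Cox8a had -0.15 and -0.18.

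Complex V, the ATP synthase, had 5 members, none of them 1.5-fold apart. Of the catalytic head, Atp5b (beta subunit) had 21039.9, 21710 and 19966, Atp5a1 (alpha subunit) 13582, 13753 and 12515, and Atp5c1 (gamma subunit, the rotating shaft) 17048, 17169 and 13201. Only the last was more than 1.25-fold lower in co-culture among these, at 1.29-fold, and its dimmer probe set, with 198.0, 235.3 and 239.7, went the other way. Atp5d (delta subunit) had 9286, 8645 and 9942. Atp5o, which joins the head to the stator, had 8045, 6986 and 6283, and its second probe set gave -0.06 between co-culture and regular medium. The median over the 5 was -0.12, and -0.03 after quantile normalization.

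The agreement between probe sets of a gene is the only measure of error these arrays allow. It holds differences between probes and transcript forms but none between cultures. Of the 95 member probe sets, 83 were bright on an array, and 27 members had more than 1 bright probe set. Over 58 pairs of bright probe sets of the same member, the median absolute disagreement in log2 difference was 0.15 between co-culture and regular medium and 0.10 between the media. Over 12597 pairs of all genes it was 0.37 and 0.16. A gene with more bright probe sets gives more pairs, so Ndufs8 with 6 and Cox5b with 4 weigh most among the members. Of the 27 members, 20 had probe sets that agreed in sign between co-culture and regular medium and 7 did not, and the range exceeded 1 for Sdhc and Ndufs4. Differences as small as those of Ndufb8, Cyc1, Uqcrb or Atp5b lie within this disagreement, and the 2 bright Sdha probe sets differed in sign, with -0.32 and 0.10.

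Among 33 further nuclear-encoded subunits listed beside the members, 29 were measured, and in co-culture 20 of them lay within 1.25-fold of regular medium. Their median was -0.01, and 0.04 after quantile normalization. Uqcrh, the acidic hinge protein of complex III that helps dock cytochrome c, was the only one 2-fold apart, with 6773, 7584 and 2599.8. It was 2.61-fold lower in co-culture than in regular medium, and its second bright probe set gave -1.46 beside -1.38. This 1 gene is 3.45% of the 29, against 2.76% of all measured genes that were 2-fold lower. Uqcrfs1 and Uqcrh are both subunits of complex III, but a shared pattern of that complex was not tested. Uqcr10 and Uqcr11, small subunits of the same complex, had 0.04 and -0.06. A dimmer Uqcr10 probe set gave 0.77. Ndufs5, of complex I, and Atp5e and Atp5g3, of the ATP synthase, had 0.57, 0.54 and -0.53. Between the media all 29 were less than 1.5-fold apart.

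Subunit isoforms listed as restricted to some tissues were mostly dim: of 9, 6 were at or below the floor on all arrays and 2 were bright on any. Cox6a2, the muscle partner of Cox6a1, had 107.6, 129.2 and 266.7, which is 2.48-fold higher in co-culture than in regular medium. It is 1 of only 2 measured here, against 5.81% of all measured genes that were 2-fold higher. The difference was 0.84 with the floor at the 60th percentile, no longer 2-fold. Cox8c, the testis isoform of Cox8a, had 253.5, 245.2 and 299.0, while its other bright probe set gave -1.24.

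Assembly factors, 42 measured of 45 listed, had a median of 0.08 between co-culture and regular medium, which was -0.01 when all probe sets of a gene were averaged. Sco1, a copper chaperone of complex IV, was 2.45-fold higher, from 129.6 and 101.9 in the media to 316.9. Sco1 was the only 1 of the 42 that was 2-fold higher, against 5.81% of measured genes. Ndufaf1, Atpaf2 and Sdhaf4, which help to assemble complex I, the ATP synthase and complex II, were lower by 1.71-fold, 1.69-fold and 1.62-fold. These 3 of 42 were the ones 1.5-fold lower, against 9.86% of measured genes. Sdhaf4 had 1001, 1085 and 619.9. Of 10 measured genes of coenzyme Q synthesis and function, Coq10a was 2.98-fold higher, from 62.2 and 68.9 to 185.4. It was the only 1 of the 10 that was 2-fold higher, against 5.81% of measured genes. Coq10b had -0.86, although a second Coq10b probe set gave 0.13. The difference of Coq10a was 0.31 with the floor at the 60th percentile.

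Regulators of respiratory genes and mitochondrial DNA showed no 2-fold difference among 15 measured. Of all measured genes 5.81% were 2-fold higher and 2.76% lower in co-culture than in regular medium, so none among so few genes lies near that share. Nrf1 had 704.7, 678.9 and 527.7, although its other 3 bright probe sets ran from -0.46 to 0.10 in log2 difference. Gabpa and Yy1 had differences of 0.04 and -0.02 at their brightest probe sets, but their other bright probe sets gave -0.71 for Gabpa and -1.10 to -0.54 for Yy1, so these genes have no settled value here. Tfam, which packages mitochondrial DNA, had 2048, 2041 and 1648, and Tfb1m, a mitochondrial rRNA methyltransferase, had 0.73. Ppargc1a, a coactivator of mitochondrial genes, was at or below the floor on all arrays. The mRNAs encoded by mitochondrial DNA were not analysed here.

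Genes listed as mitochondrial carriers, outer-membrane pores and the ATP synthase inhibitor were mostly lower in co-culture. Of 7 measured, 6 were negative against regular medium and the median was -0.36, beside -0.09 over the members. Of all 9393 measured genes 4129 were negative. After quantile normalization the medians of the carriers and the members were -0.23 and -0.02. Slc25a4 and Slc25a5, which exchange ADP for ATP across the inner membrane, had 18239, 18828 and 9361, and 21045, 20859 and 12767. They were 1.95-fold and 1.65-fold lower, and their other bright probe sets were all lower too, by -1.12 to -0.97 and by -1.12 to -0.59. Vdac1, a pore of the outer membrane, was 1.57-fold lower with -0.67 to -0.54 over its other probe sets. Against conditioned medium Slc25a4 was 2.01-fold lower, and -0.87 in log2 after quantile normalization, no longer 2-fold. Between the media the median of the group was 0.01.

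**Figure D4:**
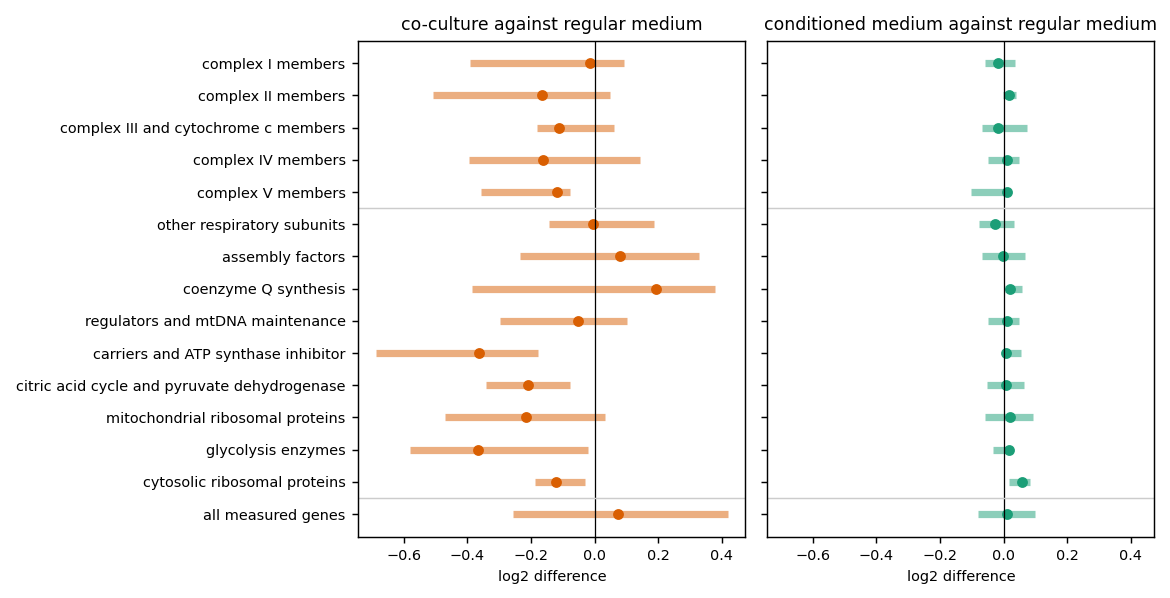
Median (point) and interquartile range over genes (bar) of the log2 difference for the members by complex, for related gene lists and for all measured genes, with co-culture against regular medium on the left and conditioned against regular medium on the right. Medians of the complexes run from -0.17 to -0.02 on the left, and from -0.02 to 0.02 on the right.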

How the data were processed

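RNA from each condition (5 ug of total RNA, labelled with biotin) was hybridised to 1 array, per the labels' protocols. The authors deposited linear intensity values per probe set, and the submitters' processing notes name MAS5 as the tool. Neither its version nor its scaling target was found in those sources. No further scaling was applied. The platform annotation gave 1 gene symbol for 34945 of 45037 probe sets, several for 932 and none for 9160. For 34741 the gene ID led to a current symbol. Each gene was read from its brightest probe set by mean over the arrays.

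The floor of 42.4 and the brightness limit of 149.3 are the pooled 40th and 60th percentiles of all signals and not detection calls. With 1 array per group no test was possible, and so few arrays limit the precision. Members and lists were chosen with earlier results of these data known, and complex I modules and the set of high-signal genes were added after the values were seen. Any member could be named. Full signals were due for members past 1.5-fold, the brightest, dimmest and most different of each complex and those whose probe sets disagreed, and other lists gave genes past 2-fold and up to 4 with the largest differences in each comparison. Uqcr10, Uqcr11, Gabpa, Yy1, Ppargc1a, Hk1 and Hk2 fall outside this and were named after their values were seen. Alternatives covered scaling, floor, filter, choice of probe set and fold. The calling rule was tested on simulated data. Python 3.11.15, NumPy 2.4.6 and pandas 2.3.3 were used.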

Additional observations from a re-analysis of the deposited data

How the results depend on the processing

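The count of members 2-fold apart stayed between 2 and 3 in both co-culture comparisons, and at 0 between the media, under other scalings, floors, filters and probe set choices, and a 3-fold rule left 0 in each. Uqcrfs1 was called under each of these but the 3-fold rule. Cox7c was lost with the floor at the 60th percentile, the filter at the 80th or without name-marked probe sets. That last setting left out probe sets with names ending in _a_at, _s_at or _x_at where the gene had another kind, whether or not they cross-hybridise. Sdhd was lost with the mean of all probe sets (-0.60 and -0.67). No called gene changed sign. Of the recomputed counts and medians 162 stayed within 0.1 in log2 or 1.5 times in count and 12 did not. Many of the 162 could hardly move. All members but Cox7c lay far above every floor tried, so the other floors and the lack of a filter left each median as it was. A count of 2 in place of 3 also fell within 1.5 times. The total is therefore no measure of how firm the values are. For the 12, beyond the scaling, fold or probe sets used, the cause was not tested. Quantile normalization moved complex III to 0.025 against regular medium and to 0.0049 against conditioned medium, where it also moved complex V to -0.030 and the member median to -0.0064. The medians over all measured genes were then 0.062 against regular and 0.067 against conditioned medium. The mean of all probe sets moved complex II to -0.35 and -0.41 against regular and conditioned medium, complex IV to -0.046 against regular medium and complex V to 0.0086 against conditioned medium. Complex IV against conditioned medium was 0.022 with the filter at the 80th percentile and -0.24 without name-marked probe sets. Differences under about 0.15, the median disagreement of member probe sets between co-culture and regular medium, cannot be read from these arrays. That median weighs genes with many probe sets most, so 0.15 is not a limit above which a difference is secure. The 90th percentile of that disagreement was 0.51, so larger differences of single genes are not secure either. Neither value holds any error between cultures. No paired analysis was possible because each condition has 1 array.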

Other observations

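Genes of the mitochondrial ribosome and of the citric acid cycle were mostly below regular medium in co-culture, where 4129 of all 9393 measured genes were negative. Assembly factors and coenzyme Q genes were not, with 23 of 42 and 7 of 10 positive. Of 73 mitochondrial ribosomal protein genes, 54 were negative. Mrpl18 and Mrpl42 were 2.31-fold and 2.16-fold lower, which is 2.74% of the 73, against 2.76% of all measured genes. Mrpl42 had -0.56 with the mean of all its probe sets. The median over the 73 genes was -0.22, beside -0.09 for the respiratory members and 0.07 for all measured genes. Of 16 measured genes of the citric acid cycle and pyruvate dehydrogenase, 12 were negative with a median of -0.21. Pdhx, a component of pyruvate dehydrogenase, and Idh3a, a catalytic subunit of isocitrate dehydrogenase, had -0.59 and -0.57, and the other Idh3a probe sets gave -1.05 and -0.78.

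Glycolysis enzymes lay lower than the respiratory members. Of 14 measured, 12 were negative in co-culture with a median of -0.37 (-0.31 after quantile normalization), and Pfkl, Pgam1 and Tpi1 were 1.83-fold, 1.69-fold and 1.62-fold lower. The exceptions were the hexokinases Hk2 and Hk1, at 0.51 and 0.41, although a second Hk1 probe set gave -0.14. Cytosolic ribosomal protein genes were the most even, with 40 of 41 within 1.25-fold of regular medium and a median of -0.12, which was -0.0089 after quantile normalization. Between conditioned and regular medium the medians of these lists were between 0.01 and 0.06, and Rpl39 was 2.02-fold higher in conditioned medium, with 460.0 against 227.6. The difference between the lists was not tested.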
